A study of Mus musculus with 33 samples.

Results

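Enzymes that break down tryptophan through kynurenine, and enzymes that make or dispose of NAD, were followed across normal mouse liver and liver tumours on Affymetrix arrays. The set is a list of 10 named genes: Tdo2, Afmid, Kmo, Kynu, Haao, Acmsd, Qprt, Nampt, Nmnat3 and Nnmt. Of these, 9 were among the 18193 genes with a probe set that carried 1 gene symbol. The brightest single-symbol probe set, by its mean level, stood for each gene. No probe set carried the symbol Acmsd in the annotation used, so this gene is not analysed here.

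All mice were 12 months old and on a mixture of the strains FVB/NT, 129S1/Svlmj and C57BL/6NT. Of 21 arrays, 7 came from wildtype livers (wt) and 5 from livers lacking E2f3a (3aKO), both given as normal tissue. The remaining arrays came from spontaneous hepatocellular carcinomas, 5 in mice with an E2F1 knock-in (1KI) and 4 in mice with an E2F3b knock-in (3bKI). Genotype and tumour therefore cannot be told apart in 1KI and 3bKI. The labels do not say at which locus E2F1 or E2F3b was inserted, nor that each array is a separate animal, so p-values measure the spread between these arrays. The authors ran 2 normalizations, wt and 3aKO with 1KI (normalization 1) and the same wt and 3aKO arrays with 3bKI (normalization 2). The tumour groups were normalized separately, so 1KI and 3bKI values are given side by side and the difference between them was not tested.

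In the liver, tryptophan is broken down mainly through kynurenine. Tdo2 opens the tryptophan ring, Afmid releases kynurenine, and Kmo, Kynu and Haao carry it towards quinolinate, which Qprt turns into a precursor of NAD. Acmsd diverts an intermediate after Haao away from NAD. Cells also rebuild NAD from nicotinamide: Nampt makes nicotinamide mononucleotide, Nmnat enzymes turn that into NAD, and Nnmt methylates nicotinamide so that it leaves the cycle.

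The arrays had these features that touch the results. The targeted genes gave no clear check of the labels: E2f3 lay between 6.42 and 6.89 in 3aKO and between 6.59 and 7.03 in wt on the log2 scale, and the log2 change of -0.19 ± 0.11 (SE) did not pass the test (limma, adjusted p = 0.7). E2f1 in 1KI differed from wt by 0.17 ± 0.11 (limma, adjusted p = 0.389), and E2f3 stood at 0.57 ± 0.13 above wt there (limma, adjusted p = 0.078). In 3bKI E2f3 differed by 0.10 ± 0.12 from wt (limma, adjusted p = 0.66) and by 0.31 ± 0.13 from 3aKO (adjusted p = 0.155). Whether these probe sets read the altered part of the genes is not known. The mean of 13 hepatocyte markers was 12.92 to 13.42 per array in normalization 1 and 12.92 to 13.37 in normalization 2. Alb, which encodes albumin, was at 14.80 or above on every array, while Ass1 lay between 6.12 and 7.92, and Apob, an apolipoprotein gene, was at 11.44 to 11.99 in 3bKI, below all 3aKO arrays (12.69 to 13.01) and within the wt range. Replicates 3 and 4 of 1KI stood apart on the first principal component of normalization 1, at 61.0 and 69.8, while the other arrays lay between -17.0 and 5.08. Sex, read from Xist and Y-linked genes, was 3 females and 4 males in wt, 3 and 2 in 3aKO and 2 and 3 in 1KI. The 3bKI arrays were 3 females and 1 array of unclear sex (replicate 2). Beta-actin control probe sets at the 3' and 5' ends, whose log2 ratio is higher in less intact RNA, gave a ratio that was 0.70 to 0.87 in 3bKI, 0.65 to 1.37 in wt and 1.06 to 1.35 in 3aKO in normalization 2. The same ratio for Gapdh was 0.14 to 0.18 in 3bKI, below all wt arrays (0.205 to 0.325) and overlapping 3aKO (0.15 to 0.26), and its part in the results was not tested.

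Tdo2, Afmid, Haao and Nmnat3 are the genes whose levels passed the test in at least 1 comparison below, and the 250 bases before the transcription start of each are shown because the compared mice differ in E2f genes. They come from RefSeq promoters of GRCm38.p6, printed on the gene's own strand, and lie for Tdo2 at chr3:81975729-81975978 (minus strand), for Afmid at chr11:117825669-117825918 (plus strand), for Haao at chr17:83846791-83847040 (minus strand) and for Nmnat3 at chr9:98296320-98296569 (plus strand). The starts used for Afmid, Haao and Nmnat3 lie inside the annotated span of the gene, and so do these windows. Capitals mark matches, on either strand, to the letters TATAAA of a TATA box, to the letters CCAAT named after that box, or to the letters GGGCGG of a GC box.
Tdo2: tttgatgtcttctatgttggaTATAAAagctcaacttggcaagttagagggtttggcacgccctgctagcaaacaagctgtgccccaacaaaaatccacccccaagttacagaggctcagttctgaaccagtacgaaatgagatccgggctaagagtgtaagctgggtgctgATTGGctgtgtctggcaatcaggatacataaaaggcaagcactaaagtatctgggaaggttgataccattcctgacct
Afmid: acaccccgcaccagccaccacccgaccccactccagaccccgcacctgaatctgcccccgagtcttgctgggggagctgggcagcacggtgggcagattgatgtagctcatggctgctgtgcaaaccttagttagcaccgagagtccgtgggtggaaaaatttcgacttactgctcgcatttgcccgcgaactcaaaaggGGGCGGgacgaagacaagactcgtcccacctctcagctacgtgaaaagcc
Haao: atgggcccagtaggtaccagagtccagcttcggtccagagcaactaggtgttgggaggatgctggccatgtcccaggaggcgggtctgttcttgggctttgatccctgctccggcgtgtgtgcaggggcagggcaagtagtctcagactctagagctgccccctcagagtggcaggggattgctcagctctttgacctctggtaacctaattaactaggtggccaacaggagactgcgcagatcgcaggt
Nmnat3: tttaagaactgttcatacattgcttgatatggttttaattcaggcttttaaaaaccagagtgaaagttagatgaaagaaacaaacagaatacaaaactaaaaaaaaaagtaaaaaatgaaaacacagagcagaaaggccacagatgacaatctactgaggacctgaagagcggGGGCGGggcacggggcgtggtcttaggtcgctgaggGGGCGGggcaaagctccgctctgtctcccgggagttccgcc
Tdo2 held a TATAAA at base -229 from the start and a CCAAT on the opposite strand at base -78, motifs held by 12.4% and 33.8% of the 32851 promoters in the table. Afmid held 1 GC box (base -50) and Nmnat3 held 2 (bases -77 and -41), as did 32.7% of all promoters at least once. The Haao window held none of the motifs searched. E2F-like letters, searched on either strand as TTTCCCGC, TTTCGCGC, TTTGCCGC and TTTGGCGC, were in none of the 8 windows that the table gives for the listed genes and in 1.86% of all promoters, and the E-box CACGTG was in none of the 8 and in 6.02% of all. The searched motifs do not overlap one another in these windows. A match or its absence describes only these letters.

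Every member called in the 5 comparisons was lower in a tumour group. A gene was called at a Benjamini-Hochberg adjusted p under 0.05 over all 18193 genes in limma's test. No member was called in 3aKO against wt, where 0% of all genes were called. There 0 members and 7.46% of all genes had an unadjusted p under 0.05. In 1KI against wt 1 of 9 was called, lower (Nmnat3), against 0.033% of all genes called lower. In 1KI against 3aKO 0 of 9 were called, with 0% of all genes called; 3 of 9 were lower at an unadjusted p under 0.05, against 8.01% of all genes. In 3bKI against wt 1 of 9 was called, lower (Tdo2), against 0.978% of all genes, and in 3bKI against 3aKO 3 of 9 were called, all lower (Tdo2, Afmid and Haao), against 6.27% of all genes. All 9 lay below 0 in both 3bKI comparisons, with a median log2 change of -0.41 against wt and -0.50 against 3aKO, while the medians over all genes were 0.01 and 0.03. Of all genes 46.9% and 45.3% lay below 0 there. In 1KI 6 of 9 lay below 0 against wt (median -0.24) and 6 against 3aKO (median -0.42), as did 56.7% and 54.7% of all genes. These comparisons share arrays, so their values are not independent of one another.

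**Figure D1:**
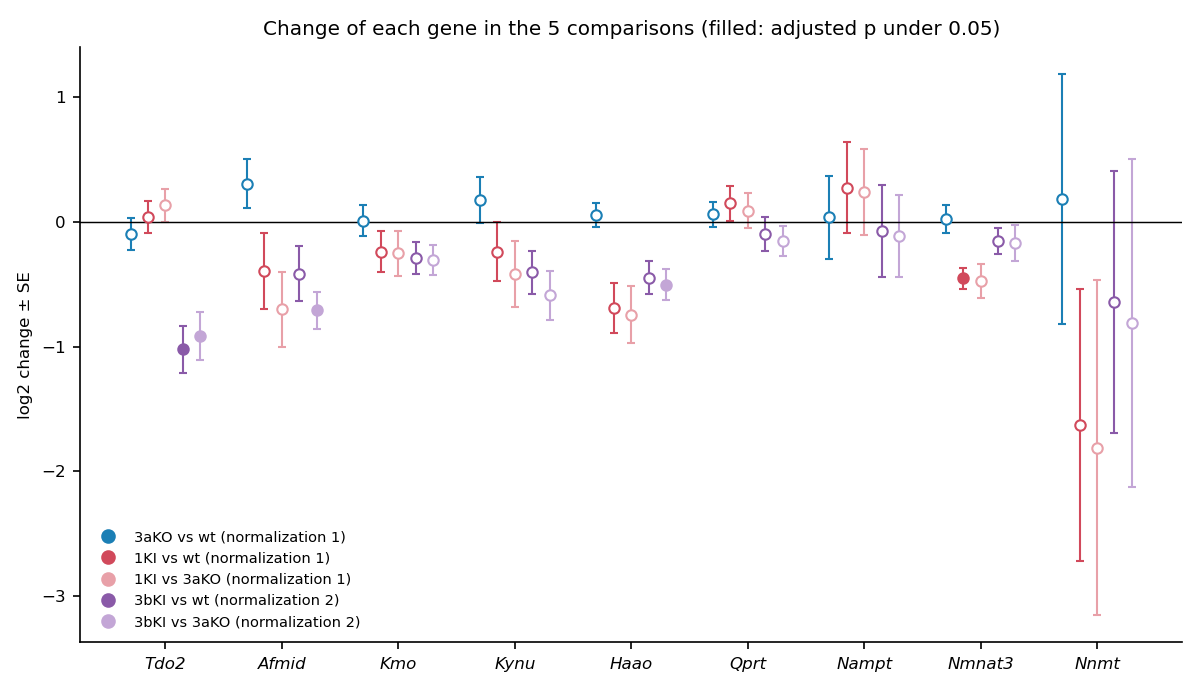
Log2 change of each of the 9 measured genes in the 5 comparisons, named group first minus second, with error bars of 1 moderated SE and filled points for an adjusted p under 0.05. The filled points are Tdo2 in both 3bKI comparisons, Afmid and Haao in 3bKI against 3aKO and Nmnat3 in 1KI against wt, and the widest bars belong to Nnmt.

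Tdo2, the enzyme of the first step, was lower in 3bKI than in wt and in 3aKO, and was not called in 1KI. The 3bKI arrays were at 12.79, 12.13, 11.86 and 12.65 (replicates 1 to 4). The wt arrays ran from 12.99 through a median of 13.35 to 13.75, and the 3aKO arrays were at 13.04, 13.51, 13.06, 13.34 and 13.43. All 4 tumours lay below all 12 normal livers in this normalization.

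The log2 change of Tdo2 in 3bKI was -1.02 ± 0.19 against wt, a 2.03-fold lower level (limma, adjusted p = 0.025, n = 4 and 7), and -0.92 ± 0.19 against 3aKO (limma, adjusted p = 0.0242, n = 4 and 5). Genes with all 3bKI arrays below all wt arrays made up 2.38% of all genes. Both other Tdo2 probe sets fell as well, by 1.17 and 1.26 against wt (limma, adjusted p = 0.0212 and 0.0252 over 45037 probe sets). In 1KI the arrays were at 13.30, 13.70, 13.65, 13.21 and 13.34, inside the wt range of 13.03 to 13.71 of normalization 1, with a change of 0.04 ± 0.13 (limma, adjusted p = 0.886). The sign of this value turned in 7 of 26 alternative settings, with a range of -0.05 to 0.14.

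Sex and RNA quality moved with the 3bKI group. Among normal livers Tdo2 was 0.33 lower in females on the log2 scale, a difference that did not pass the test (limma, adjusted p = 0.0814). Female 3bKI tumours ran from 11.86 to 12.79, female wt livers from 12.99 to 13.31 and female 3aKO livers from 13.04 to 13.43. Once restricted to females, the change of Tdo2 was -0.72 against wt (limma, adjusted p = 0.265) and -0.74 against 3aKO (limma, adjusted p = 0.18), so both calls were lost. With the beta-actin ratio in the fit they were lost too, at -0.93 (adjusted p = 0.273) and -0.83 (adjusted p = 0.825), and since 3bKI and 3aKO do not overlap in that ratio, the ratio and the group cannot be told apart there.
Leaving out any one of wt replicates 1, 4 and 5 or 3bKI replicates 2 and 3 also ended the call against wt, with values of -0.99 to -0.86 and adjusted p of 0.05 to 0.069 in limma. Against 3aKO the call ended without 3aKO replicate 2, 4 or 5 or 3bKI replicate 2, with adjusted p of 0.0517 to 0.06.

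**Figure D2:**
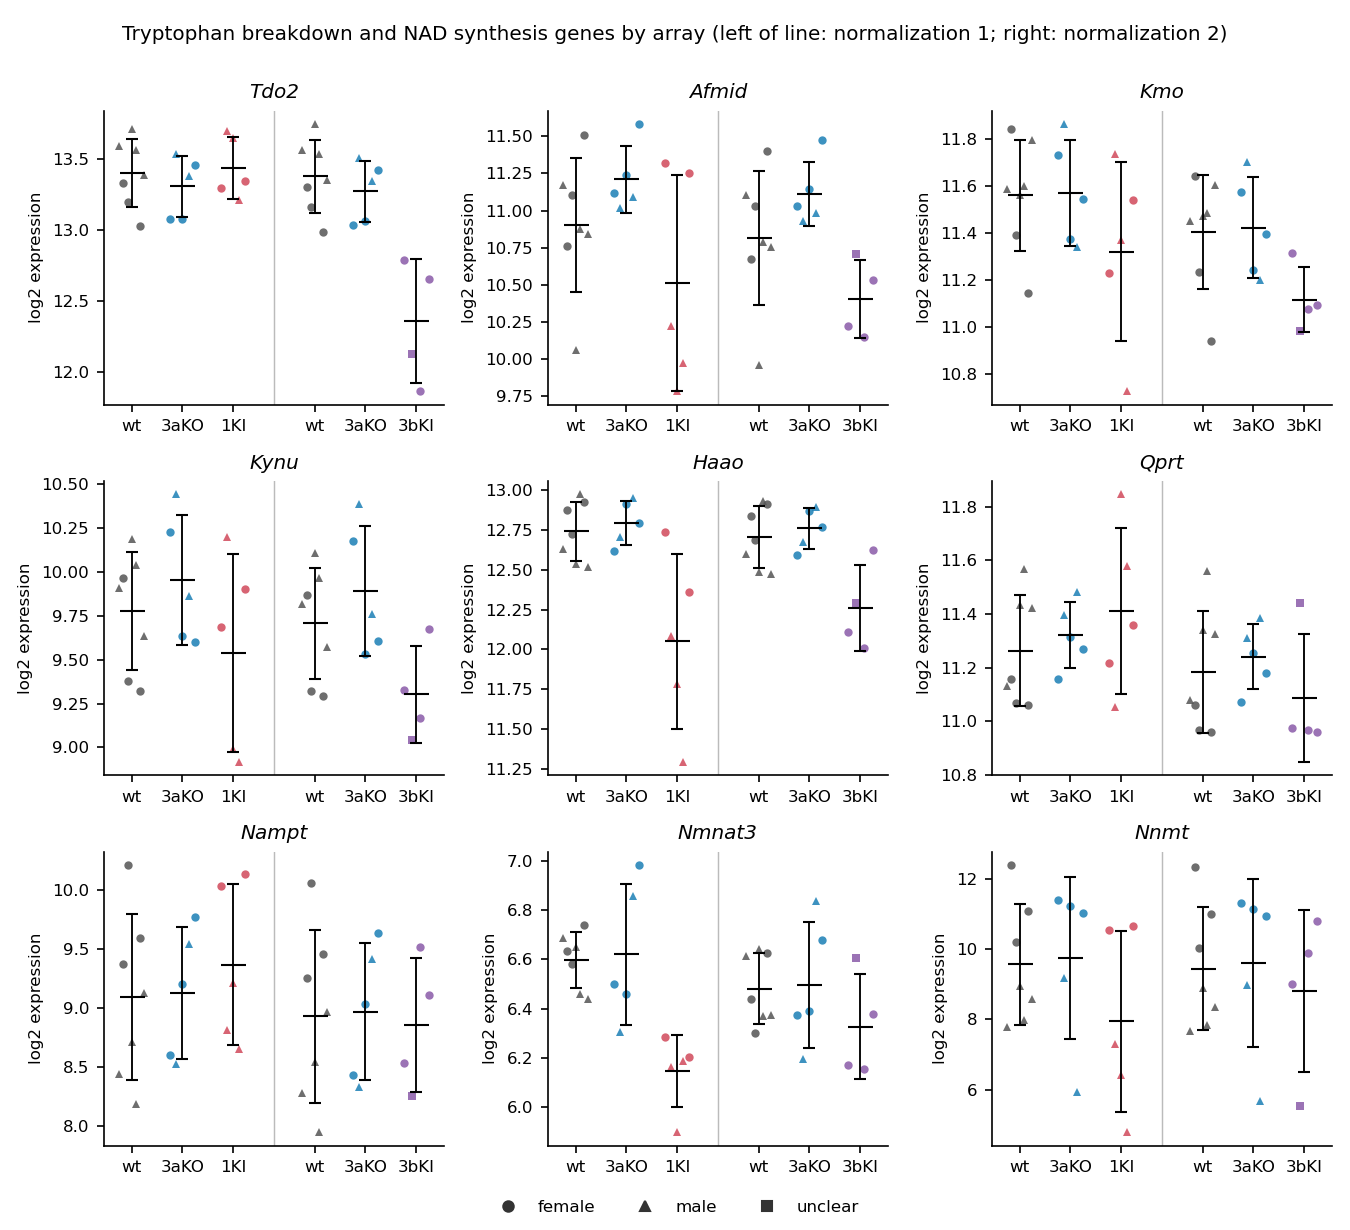
Log2 expression of the 9 measured genes on each array (points, shaped by sex) with the group mean and SD (bars), for wt, 3aKO and 1KI in normalization 1 and wt, 3aKO and 3bKI in normalization 2. Tdo2 in 3bKI lies below 12.79 or at it, under all wt and 3aKO points, and Nnmt spreads from 4.80 to 12.39 in normalization 1.

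Afmid, the formamidase that releases kynurenine, was lower in 3bKI than in 3aKO and in 1KI was high in the females and low in the males. The 3bKI arrays were at 10.22, 10.71, 10.15 and 10.53, and the 3aKO arrays at 11.03, 10.93, 11.14, 10.98 and 11.48. All 3bKI arrays lay below all 3aKO arrays, a pattern shown by 8.95% of all genes in this comparison, and the change was -0.71 ± 0.15, 1.64-fold (limma, adjusted p = 0.0229). Against wt, whose arrays ran from 9.96 through 10.79 to 11.40 and overlapped the tumours, it was -0.41 ± 0.22 (limma, adjusted p = 0.312). Female 3bKI arrays ran from 10.15 to 10.53 and female wt arrays from 10.67 to 11.40. In females only the change against wt was -0.73 (limma, adjusted p = 0.18).

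The second Afmid probe set by mean level was called against 3aKO too, at -0.61 (limma, adjusted p = 0.0442), the third gave -0.52 (adjusted p = 0.077) and the dimmest, at a mean of 2.30, gave 0.09. In females alone the change against 3aKO was -0.91 (limma, adjusted p = 0.0648), with the beta-actin ratio in the fit -0.64 (adjusted p = 0.825), without 3bKI replicate 3 -0.62 (adjusted p = 0.0538), and with quantile normalization -0.60 (adjusted p = 0.0508), so each ended the call. In 1KI Afmid was at 11.32, 10.22, 9.78, 9.97 and 11.25, with the 2 females (replicates 1 and 5) high and the 3 males low. The change was -0.39 ± 0.30 against wt (limma, adjusted p = 0.476) and -0.70 ± 0.30 against 3aKO (limma, adjusted p = 0.344). Within males it was -0.75 against wt and within females 0.16, and the difference of these changes did not pass the test (limma interaction, adjusted p = 0.78). Without 1KI replicates 3 and 4, which are both males and stand apart from the other arrays, the change against wt was 0.03.

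The start of Afmid lies close to Tk1, the cytosolic thymidine kinase and a textbook gene of S phase, whose annotated span overlaps that of Afmid. Tk1, chosen after its place was seen, had means of 9.03 in 3bKI and 9.46 in 3aKO, a change of -0.43 ± 0.28 (limma, adjusted p = 0.327).

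Kmo, which makes 3-hydroxykynurenine, and Kynu, which cleaves it, were not called in any comparison. Kmo in 3bKI was at 11.31, 10.98, 11.08 and 11.09, within the wt range of 10.94 to 11.64, with -0.29 ± 0.13 against wt (limma, adjusted p = 0.228) and -0.31 ± 0.12 against 3aKO (limma, adjusted p = 0.128). In 1KI it was at 11.23, 11.73, 11.37, 10.73 and 11.54 and changed by -0.24 ± 0.16 against wt (limma, adjusted p = 0.423). Replicate 4 was the lowest Kmo value of normalization 1.

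Kynu in 3bKI was at 9.33, 9.04, 9.17 and 9.68, and 2 of the 4 arrays (replicates 2 and 3) lay below all wt arrays (9.30 to 10.11). Its change was -0.41 ± 0.17 against wt (limma, adjusted p = 0.208) and -0.59 ± 0.20 against 3aKO (limma, adjusted p = 0.0833). In 1KI replicates 3 and 4 were at 8.99 and 8.92, under the wt minimum of 9.32, while replicates 1, 2 and 5 were at 9.69, 10.20 and 9.90. The change in 1KI was -0.24 ± 0.23 against wt (limma, adjusted p = 0.581), and 0.15 without replicates 3 and 4. The second, dimmer Kynu probe set gave -0.12 against wt and -0.07 against 3aKO in 3bKI (limma, adjusted p = 0.73 and 0.874 over all probe sets). In 1KI against wt that probe set gave -0.32 (limma, adjusted p = 0.42).

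Haao, the dioxygenase that feeds the quinolinate branch, passed the test in 3bKI against 3aKO, as did Tdo2 and Afmid. The 3bKI arrays were at 12.11, 12.29, 12.01 and 12.62, the 3aKO arrays at 12.59, 12.68, 12.87, 12.89 and 12.77, and the wt arrays ran from 12.48 through 12.68 to 12.94. Replicates 1 to 3 of 3bKI lay below every normal liver and replicate 4 lay among them. The change was -0.50 ± 0.13, 1.42-fold (limma, adjusted p = 0.0408), against 3aKO and -0.45 ± 0.13 (limma, adjusted p = 0.0928) against wt. In females alone the change against 3aKO was -0.50 (limma, adjusted p = 0.196), and leaving out any 3bKI array but replicate 4, or any 3aKO array but replicate 1, ended the call, with adjusted p of 0.0643 to 0.0906. With the beta-actin ratio in the fit it was -0.12 (adjusted p = 0.966), and it also lost the call with quantile normalization (-0.36, adjusted p = 0.122) and array weights (-0.43, adjusted p = 0.0698).

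In 1KI Haao was at 12.74, 12.08, 11.78, 11.29 and 12.36, against wt arrays that ran from 12.52 through 12.73 to 12.97. Replicate 1 lay within the wt range and the other 4 below it, with replicates 3 and 4 the lowest. The change was -0.69 ± 0.20, 1.61-fold (limma, adjusted p = 0.147), against wt and -0.74 ± 0.23 (limma, adjusted p = 0.238) against 3aKO, so neither passed. Without replicates 3 and 4 the change against wt was -0.35 (limma, adjusted p = 0.51). Males changed by -0.94 and females by -0.29, and the test of this difference gave an adjusted p of 0.788 (limma interaction).

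Qprt, which commits quinolinate to NAD, was not called in any comparison. Its group means spanned only 11.26 to 11.41 in the first normalization, and 11.09 to 11.24 in the second. The 3bKI arrays were at 10.98, 11.44, 10.97 and 10.96, with replicate 2 apart from the other 3, and the 1KI arrays at 11.22, 11.05, 11.85, 11.58 and 11.36, with replicates 3 and 4 above all wt arrays. No change passed: 0.15 ± 0.14 in 1KI against wt (limma, adjusted p = 0.564) and -0.10 ± 0.14 in 3bKI against wt (limma, adjusted p = 0.723), where the 95% interval ran from -0.39 to 0.20. The second Qprt probe set gave -0.19 against wt and -0.26 against 3aKO in 3bKI (limma, adjusted p = 0.434 and 0.12 over all probe sets).

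Nmnat3, the mitochondrial enzyme of the last step of NAD synthesis, was the member that passed in 1KI. The 1KI arrays were at 6.29, 6.16, 5.90, 6.19 and 6.20. The wt arrays ran from 6.44 through 6.63 to 6.74, and the 3aKO arrays were at 6.50, 6.30, 6.46, 6.86 and 6.98. All 5 tumours lay below all 12 normal livers.

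The change of Nmnat3 in 1KI was -0.45 ± 0.08 against wt, 1.37-fold (limma, adjusted p = 0.0483, n = 5 and 7), and -0.47 ± 0.14 against 3aKO (limma, adjusted p = 0.231, n = 5 and 5). All 1KI arrays below all wt arrays were found for 0.863% of genes, and all below all 3aKO arrays for 1.96%. The adjusted p lay just under the threshold: the call was lost in 18 of 26 alternative settings, with adjusted p of 0.0346 to 0.348 over all of them. Leaving out any 1 array other than 1KI replicate 1 ended it. The size hardly moved, from -0.49 to -0.37. It was -0.41 in females, -0.48 in males and -0.38 without replicates 3 and 4.

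The second Nmnat3 probe set was dimmer, at a mean of 3.50, and changed by -0.29 ± 0.10 in 1KI against wt (limma, adjusted p = 0.2 over all probe sets). The same probe set changed by only -0.05 ± 0.12 in 1KI against 3aKO (limma, adjusted p = 0.896). In normal 3aKO livers against wt it changed by -0.24 ± 0.09 (limma, adjusted p = 0.629). In 3bKI Nmnat3 was at 6.17, 6.61, 6.16 and 6.38, overlapping wt arrays of 6.30 to 6.64, with -0.15 ± 0.11 (limma, adjusted p = 0.441). The 95% interval of the change against wt was -0.63 to -0.27 in 1KI and -0.39 to 0.08 in 3bKI.

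Nampt, the entry enzyme of nicotinamide salvage, varied widely within every group and was not called in any comparison. In wt it ran from 8.19 through 9.13 to 10.21 in normalization 1. The 1KI arrays were at 10.03, 8.81, 9.21, 8.65 and 10.13, with both females highest, and the 3bKI arrays at 8.54, 8.26, 9.52 and 9.11. The change was 0.28 ± 0.36 in 1KI against wt (limma, adjusted p = 0.685) and -0.07 ± 0.37 in 3bKI against wt (limma, adjusted p = 0.929). The other 2 Nampt probe sets gave changes of 0.08 and 0.09 in 1KI and -0.25 and -0.18 in 3bKI, none called. In females only, Nampt in 3bKI changed by -0.535 against wt (limma, adjusted p = 0.469) and by 0.02 against 3aKO (limma, adjusted p = 0.98).

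Nnmt, which methylates nicotinamide and so takes it out of salvage, differed by sex in normal livers and was not called between groups. Among the 12 normal livers of normalization 1, the 6 females were at 12.39, 10.20 and 11.09 in wt and 11.39, 11.22 and 11.03 in 3aKO. The 6 males were at 7.77, 8.95, 7.99 and 8.59 in wt and 9.17 and 5.95 in 3aKO. Every female lay above every male, as for 1.19% of all genes.

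In a fit with genotype and sex, added after the Nnmt values were seen, the female minus male difference of Nnmt was 3.21 ± 0.49 on the log2 scale, 9.27-fold (limma, adjusted p = 0.00388, n = 6 and 6). In that fit 2.53% of all genes were called, 1.43% higher in females, and no other member was called in either direction. Nampt had 0.72 ± 0.27 (limma, adjusted p = 0.203), Tdo2 -0.33 ± 0.09 (adjusted p = 0.0814), Kynu -0.36 ± 0.16 (adjusted p = 0.275) and Qprt -0.25 ± 0.08 (adjusted p = 0.118).

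Tumours were split by sex in 1KI too. The 1KI females were at 10.53 and 10.66 and the 1KI males at 7.30, 6.42 and 4.80, and all 3 males lay below all wt arrays. The female 3bKI tumours were at 9.001, 9.88 and 10.80 and the array of unclear sex at 5.53. Against wt the change of Nnmt was -1.63 ± 1.09 in 1KI (limma, adjusted p = 0.412) and -0.64 ± 1.05 in 3bKI (limma, adjusted p = 0.766). Within sexes the 1KI change was -0.63 in females and -2.15 in males (limma, adjusted p = 0.681 and 0.185), and the interaction gave an adjusted p of 0.802. Without 1KI replicates 3 and 4, both males, the change over both sexes was -0.07, with replicate 2 as the only 1KI male left. Without 3bKI replicate 2 the 3bKI change turned to 0.45, with only female tumours set against wt livers of both sexes. In females only the 3bKI change was -1.23 against wt (limma, adjusted p = 0.444) and -1.24 against 3aKO (limma, adjusted p = 0.171).

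**Figure D3:**
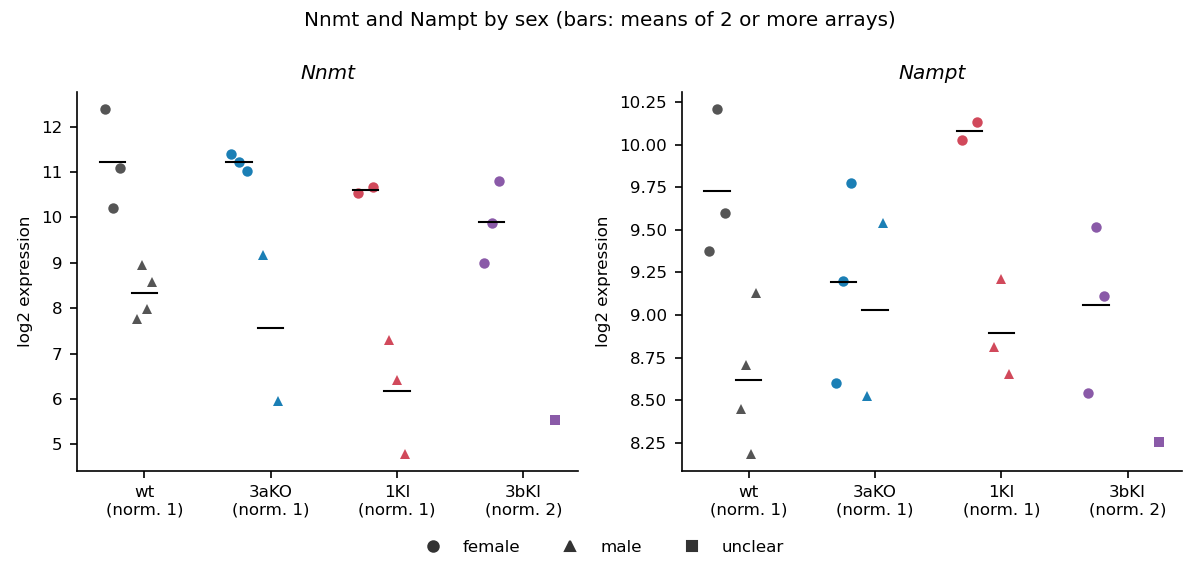
Log2 expression of Nnmt and Nampt on each array by group and by sex read from the arrays, with black bars for the mean of 2 or more arrays. Female Nnmt values lie between 9.001 and 12.39 and male values between 4.80 and 9.17, and Nampt in 1KI is above 10 in both females.

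Compared with the range of the 7 wt livers, single tumours differed in how many of the 9 genes fell below it. In 1KI, replicates 1 to 5 had 1, 4, 5, 6 and 2 genes below all wt arrays, while 15.8%, 12.5%, 26.9%, 27.2% and 12.5% of all genes lay there. In 3bKI, replicates 1 to 4 had 3, 4, 4 and 1 genes below all wt arrays, against 14.3%, 20.3%, 19.2% and 11.7% of all genes. The 3aKO livers had 0 or 1, while 9.07% to 16.6% of all genes lay there over both normalizations. Above all wt arrays lay 0, 1, 1, 1 and 0 genes in 1KI replicates 1 to 5, beside 10.5% to 23.6% of all genes. The 3bKI tumours had 0 genes above, beside 15.3% to 19.4%, and the 3aKO livers 0 to 2, beside at most 13.3%. Tdo2 was below the wt range in all 4 of the 3bKI tumours and Nmnat3 in all 5 of the 1KI tumours.

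**Figure D4:**
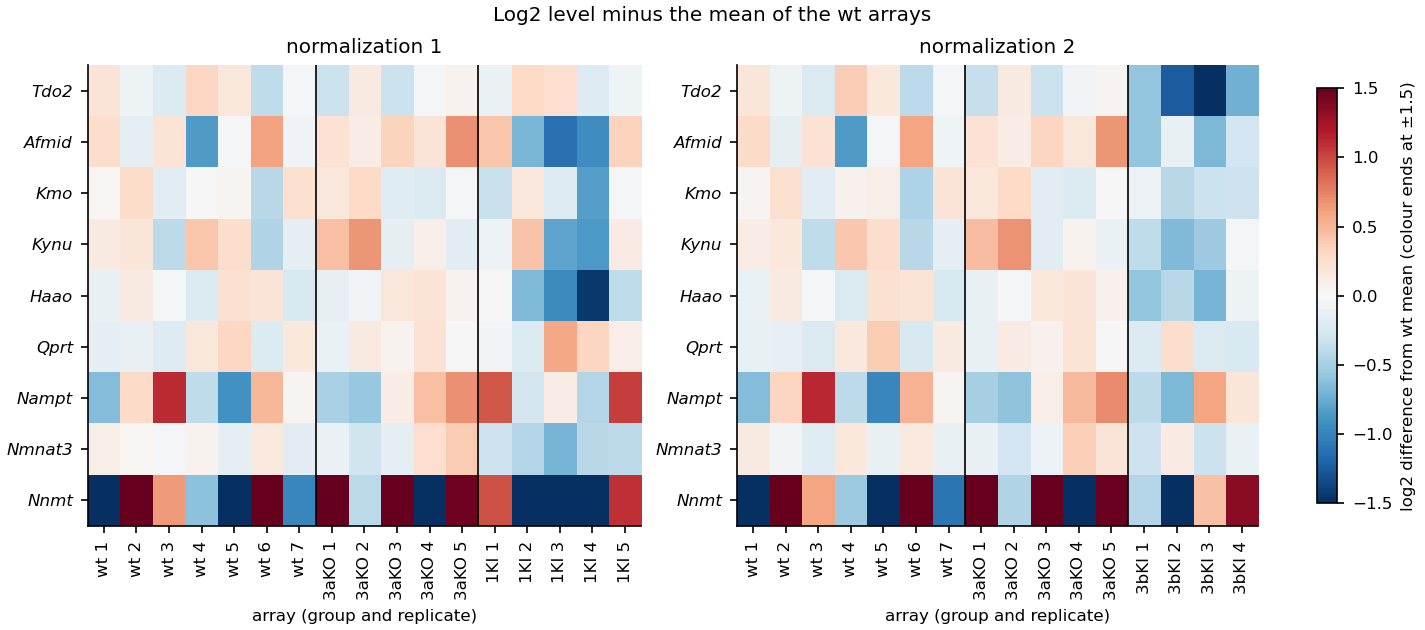
Log2 level of each gene on each array minus the mean of the wt arrays of the same normalization (colour, ending at 1.5 in either direction). The Tdo2 row is blue in all 4 of the 3bKI arrays and mixed in 1KI, and in normalization 1 the Haao, Kynu and Afmid rows are darkest in 1KI replicates 3 and 4.

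None of the 9 genes passed the test between 3aKO and wt livers. Changes ran from -0.09 (Tdo2) to 0.31 (Afmid, ± 0.20, limma, adjusted p = 0.733), and 8 of 9 lay above 0, with a median of 0.05 beside 0.00 over all genes, of which 49.5% lay below 0. For none of the 9 did the 3aKO arrays lie all above or all below the wt arrays, as they did for 0.214% and 0.286% of all genes. The widest 95% interval was that of Nnmt, -1.98 to 2.34, and the narrowest that of Haao, -0.16 to 0.27.

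Genes around the set were read from 4 lists. With the beta-actin ratio in the fit, 0 genes were called in either 3bKI comparison, so every 3bKI call named from these lists was lost there. Of 14 other genes of tryptophan and kynurenine handling, 1 was called in 3bKI against wt, where 0.978% of all genes were called lower: Aadat, which converts kynurenine to kynurenate, fell by 0.95 ± 0.22 (limma, adjusted p = 0.0493), and 8 of the 14 lay below 0 with a median of -0.17. Against 3aKO, where 6.27% of all genes were called lower, 4 of the 14 were, and none higher: Aadat (-0.92), the dehydrogenase gene Aldh8a1 (-0.39), and Gcdh (-0.77) and Dhtkd1 (-0.81), which act late in the breakdown of tryptophan and lysine, with adjusted p of 0.0336 to 0.0497 (limma). In 1KI none of the 14 was called, and Ido2, a relative of the tryptophan dioxygenase Ido1, had the lowest p at -0.65 ± 0.18 (limma, adjusted p = 0.132). For the same gene the value was -0.65 ± 0.17 in 3bKI against wt (limma, adjusted p = 0.0717). In 3aKO against wt none was called.

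Of 19 other genes of NAD synthesis, salvage and clearance, none was called in 3bKI against wt or in a comparison of normalization 1. Against 3aKO 2 of the 19 fell in 3bKI, beside 6.27% of all genes: Nmnat1, the nuclear relative of Nmnat3, by 0.54 ± 0.15 (limma, adjusted p = 0.0483), and Naxd, which repairs damaged NADH, by 0.46 ± 0.08 (limma, adjusted p = 0.0175). The median of the 19 was -0.10 against wt and -0.10 against 3aKO. Naprt, which starts NAD synthesis from nicotinic acid, had the lowest p of the list in 1KI against wt, at -0.34 ± 0.13 (limma, adjusted p = 0.203). In 3bKI against wt the lowest p of the list were those of Nudt12, a hydrolase of NADH, at -0.56 ± 0.18 (limma, adjusted p = 0.107), and of Naxd, at -0.35 ± 0.12 (adjusted p = 0.129).

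Of 22 measured NAD-consuming enzymes, Sirt1, a deacetylase, fell by 0.60 ± 0.14 in 3bKI against wt (limma, adjusted p = 0.0497) and Parp6, a relative of the poly-ADP-ribose polymerases, fell by 0.45 ± 0.11 against 3aKO (limma, adjusted p = 0.0372). Each was the 1 call among the 22, beside 0.978% and 6.27% of all genes called lower, so against 3aKO the share of the list was not above that of all genes. The list median was -0.09 and -0.07 in those comparisons and 0.09 in 1KI against wt, where none was called. Of 9 measured genes of the aryl hydrocarbon receptor, which kynurenine can activate, 1 was called in 3bKI against 3aKO: Arnt, the partner of the receptor, fell by 0.34 ± 0.07 (limma, adjusted p = 0.0225). Its target Cyp1a2 stood at -1.04 ± 0.29 there (limma, adjusted p = 0.0508) and was named after its value was seen. Of the 9, 6 lay above 0 in that comparison, with a median of 0.11, and 6.27% of all genes were called lower there. Against wt the median of the list was 0.05 in 3bKI and 0.01 in 1KI. In 1KI against wt Arnt changed by 0.215 ± 0.07 (limma, adjusted p = 0.166).

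**Figure D5:**
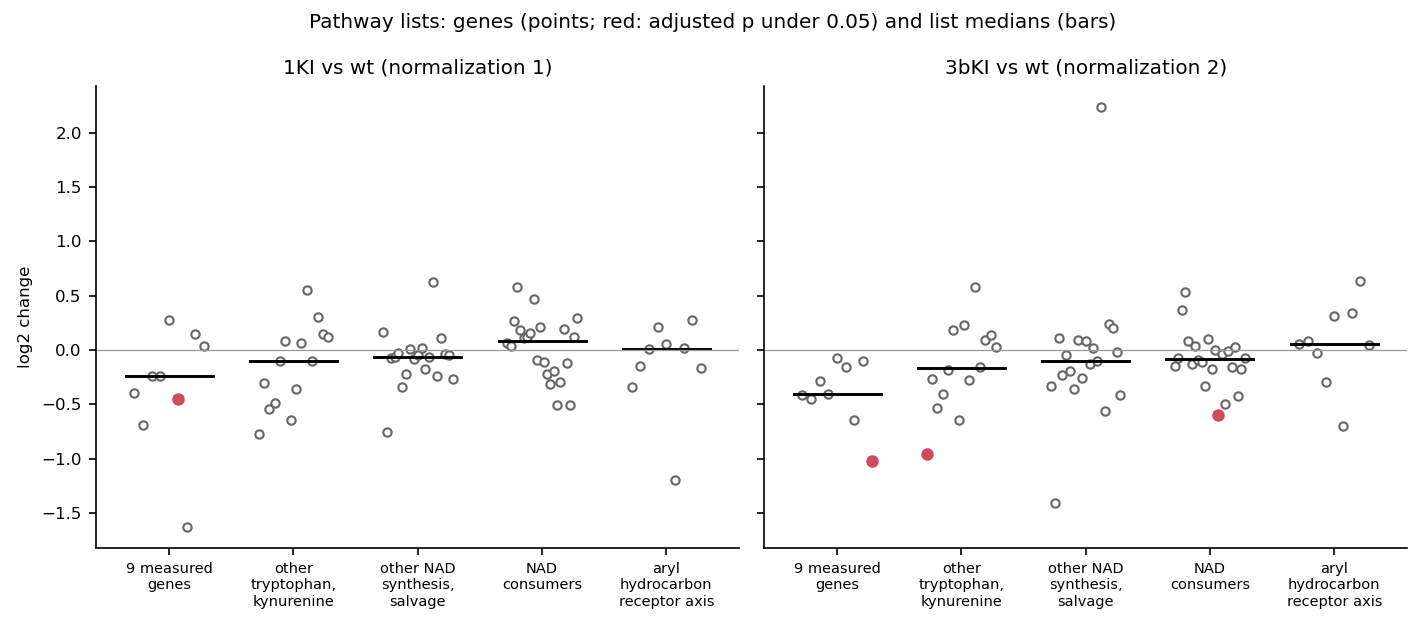
Log2 change of each gene (points, red for an adjusted p under 0.05) and the median (bars) for the 9 measured genes and 4 lists around them, in 1KI against wt and in 3bKI against wt. The medians of the 9 genes, -0.24 and -0.41, lie below those of the other lists, and the red points are Nmnat3 at left and Tdo2, Aadat and Sirt1 at right.

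Markers of cell types were compared as well, and against wt only stellate cell and fibroblast markers were called, in both tumour groups. In bulk tissue, fewer cells of a type and less RNA per cell cannot be told apart. All 13 stellate cell and fibroblast markers lay above 0 in 3bKI against wt, with a median of 0.82 and 5 called higher (1.09% of all genes were), and their mean level ran from 7.99 to 8.80 in 3bKI and from 7.50 to 7.85 in wt. In 1KI 12 of 13 lay above 0, with a median of 0.56 and 1 called higher (0.209% of all genes were), and the level ran from 8.23 to 8.63 against 7.60 to 7.96 in wt. Of the 15 macrophage markers, all lay above 0 in 3bKI against wt (median 0.27) and 11 below 0 in 1KI against wt (median -0.38), with 0 called in either. Of the 13 hepatocyte markers, 10 lay below 0 in 3bKI against wt with a median of -0.12 and 0 called, and 8 in 1KI with a median of -0.05. T and NK cell markers lay below 0 in 10 of 10 in 1KI (median -0.27) and above 0 in 9 of 10 in 3bKI (median 0.11). Endothelial markers lay above 0 in 10 of 12 in 1KI and 8 of 12 in 3bKI, and cholangiocyte markers in 5 of 6 in both. Their mean levels were 7.71 to 8.196 in 1KI against 7.64 to 7.88 in wt for endothelium and 5.10 to 5.78 against 4.93 to 5.34 for cholangiocytes. The mean of 5 adipocyte markers was 4.74 to 5.80 in 1KI against 4.69 to 4.91 in wt, but 3 of the 5 lay below 0 (median -0.06). All 8 neutrophil markers lay above 0 in 3bKI (median 0.25). None of the genes of these 5 lists was called against wt. In 3bKI against 3aKO, 2 hepatocyte markers were called lower (list median -0.16), beside 6.27% of all genes. Called higher there were 4 stellate cell and fibroblast, 2 neutrophil, 1 macrophage and 1 B or plasma cell markers, beside 531 of all 18193 genes. The part of all these markers in the changes of Tdo2, Afmid, Haao and Nmnat3 was not tested.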

How the data were processed

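Per the labels' protocols, total RNA from mouse liver was extracted with Trizol and biotin-labelled cRNA was hybridised to Affymetrix arrays. The authors deposited log2 expression values per probe set, normalized in 2 separate runs by a method not given in the sources used here. The 33 columns are 21 arrays, 12 of them in both runs; between runs, r over probe sets was 0.9985 to 0.9987. The number of arrays limits the precision.

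Of 45101 probe sets, 34945 carried 1 gene symbol, 932 several and 9160 none, and 64 were controls. Each gene took its single-symbol probe set of highest mean (18193 genes). Fits held only the 2 groups compared, within 1 run, and used limma 3.58.1 (lmFit, eBayes) in R 4.3.3, two-sided, Benjamini-Hochberg over all genes. Errors are moderated SEs. The fit was tested on simulated data. Sex was read from Xist (log2 above 10) and the mean of Eif2s3y, Kdm5d and Uty (above 5). Every listed gene is described; genes of the surrounding lists were named when called or, in a list with no call, among the 2 of lowest p, except Cyp1a2.

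The members, lists and tests were chosen with earlier results of these data known. Alternatives covered normalization, centring, a filter on the lowest 40% of genes, probe sets, groups fitted, variance moderation, array weights, replicate block, sex, RNA quality and left-out arrays. The fits of sex and its interaction, and that without 3bKI replicate 2 for the sex question, were chosen after seeing the data. Promoters are from RefSeq tables of GRCm38.p6, which held 8 of the 10 genes.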

Additional observations from a re-analysis of the deposited data

Results flagged for a closer look

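Qprt in 3bKI replicate 2 stood at 11.44 on the log2 scale, while the next array was at 10.98, and this gap was 0.971 of the range of the group. This is the array of unclear sex. Of the 54 sets of arrays examined (9 genes in 6 groups), 1 held such a lone array, where chance gives about 1 in 20. The wt and 3aKO arrays enter once for each normalization, so these sets are not all separate. Of 27 tests of whether a change between groups differed by sex, the smallest unadjusted p was 0.00175, for Afmid in 1KI against 3aKO, and the smallest adjusted p was 0.78.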

How the results depend on the processing

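Over 45 gene-by-comparison values and 1080 recalculations, 958 kept their direction and side of the threshold, 52 lost a call, 1 gained one (Haao in 3bKI against wt, adjusted p = 0.0426 with all 3 groups in the fit) and 69 changed sign, none of them past the threshold.

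Members called in 1KI against wt fell from 1 to 0 with the mean of a gene's probe sets, every probe set tested, eBayes with trend and robust, females only, males only and without both 1KI replicates 3 and 4, and ran from 0 to 1 when single arrays were left out. In 3bKI against wt the count was 2 with all 3 groups fitted, 0 with sex or the beta-actin ratio as a covariate and in females only, and 0 to 1 with single arrays left out. In 3bKI against 3aKO it went from 3 to 1 with quantile normalization and with sex as a covariate, to 0 in females only and with the beta-actin ratio, and was 1 to 3 with single arrays left out. Leaving out any of 3aKO replicates 2, 4 and 5 or 3bKI replicates 2 and 3 gave 1. In both 3bKI comparisons the fit with sex as a covariate dropped replicate 2, the array of unclear sex, and kept only female tumours. Its changes were therefore those of females only, at -0.72 for Tdo2 against wt in both fits.

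The labels do not say that a replicate number pairs arrays, and deviations of same-numbered arrays correlated from -0.469 to 0.443 over the 5 comparisons. In 3bKI against 3aKO all 4 were above 0, from 0.063 to 0.278. With the number as a replicate block, members called were 0 in 1KI against wt (Nmnat3 -0.45, adjusted p = 0.237) and 0 in 3bKI against 3aKO (adjusted p = 0.0752 for Tdo2, 0.0794 for Afmid and 0.0808 for Haao), and genes called overall went from 44 to 1 in the former, from 377 to 694 in 3bKI against wt and from 1671 to 50 in 3bKI against 3aKO. The block changed no call of a member in the other comparisons.

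Counts over all genes moved too. In 1KI against wt 44 genes became 313 with all 3 groups fitted, 69 with array weights, 93 with sex and 70 with the beta-actin ratio as covariates, 13 in females, 8 in males, 72 over every probe set, and 2 to 69 with single arrays left out. In 1KI against 3aKO 0 became 57 with all 3 groups, 15 with array weights, 23 without 1KI replicates 3 and 4 and 11 over every probe set. In 3bKI against wt 377 became 996 with all 3 groups, 766 with array weights, 67 with sex, 16 in females and 0 with the beta-actin ratio, and 49 to 848 with single arrays left out. In 3bKI against 3aKO 1671 became 844 with quantile normalization, 3435 over every probe set, 145 with sex, 31 in females and 0 with the beta-actin ratio, and 490 to 1440 with single arrays left out. Centring moved the split of higher to lower calls from 199 and 178 to 197 and 548 in 3bKI against wt, and from 531 and 1140 to 328 and 1638 in 3bKI against 3aKO. Leaving out arrays reduces the samples; the other causes were not tested.

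Values that changed sign in 3aKO against wt were Kmo -0.0218, Nampt -0.0129 and Nmnat3 -0.0039 with quantile normalization, Kmo -0.0065 with centring, Nampt -0.014 and Nmnat3 -0.11 with the mean of probe sets and Kmo -0.025 with the replicate block. Others there were Nampt -0.0877 and Nnmt -0.37 with sex as a covariate, Tdo2 0.0198, Haao -0.0689, Nampt -0.53, Nmnat3 -0.0051 and Nnmt -0.0125 with females only, Kmo -0.0336 and Nnmt -0.77 with males only and Nampt -0.0353 and Nmnat3 -0.0088 with the beta-actin ratio. Values that changed sign in 1KI against wt were Tdo2 -0.0043 with centring, Tdo2 -0.0051 with array weights, Tdo2 -0.0401 with the replicate block and Afmid 0.16 and Kynu 0.24 with females only. Others there were Tdo2 -0.0455 with males only and Afmid 0.0291, Kynu 0.15 and Qprt -0.0528 with 1KI replicates 3 and 4 left out. Values that changed sign in 1KI against 3aKO were Qprt -0.0185 with array weights, Nampt -0.14 with males only, Qprt -0.0446 with the beta-actin ratio and Qprt -0.11 with 1KI replicates 3 and 4 left out. Values that changed sign in 3bKI against wt were Nampt 0.0286 with array weights and Nampt 0.0534 and Nnmt 0.0519 with the beta-actin ratio. Values that changed sign in 3bKI against 3aKO were Nampt 0.0533 with the replicate block, Nampt 0.0213 with sex as a covariate, Nampt 0.0213 with females only and Nampt 1.55 and Nnmt 1.53 with the beta-actin ratio. With single arrays left out, values crossed 0 for Nampt from -0.13 to 0.22, Nnmt from -0.23 to 1.13, Kmo from -0.0623 to 0.0685 and Nmnat3 from -0.0691 to 0.10 in 3aKO against wt, Tdo2 from -0.0266 to 0.0949 in 1KI against wt, Qprt from -0.0207 to 0.18 in 1KI against 3aKO, Nampt from -0.29 to 0.13 and Nnmt from -1.31 to 0.45 in 3bKI against wt and Nampt from -0.33 to 0.0865 and Nnmt from -1.79 to 0.28 in 3bKI against 3aKO.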
